A study of Mus musculus with 3 samples.

Results

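Lysosomal genes were examined after stable introduction of MAFK into NMuMG, a mouse line of mammary gland epithelium. They comprise 49 genes chosen by name: acid hydrolases, the cathepsin proteases among them, proteins of the lysosomal membrane and its proton pump, progranulin, and the 4 MiT/TFE transcription factors. The choice was made with earlier results of these data known. For each gene the probe set that carried its symbol alone and had the highest mean over the arrays was used, and all 49 could be measured among 19935 genes. The mock group was 1 array of NMuMG cells with the empty pCAGIP vector (n = 1). The MAFK group was 2 arrays, 1 of clone 4 and 1 of clone 10, stable lines carrying FLAG-tagged MafK in pCAGIP (n = 2). Both groups were NMuMG cells kept under puromycin in the same medium, and no other treatment is labelled. Each MAFK line is 1 clone, whereas the mock cells are not labelled as one, so an effect of MAFK and a difference that arose in cloning cannot be told apart. Each clone was measured once, so the 2 MAFK arrays give the spread between clones and the mock cells have no spread of their own. The Mafk probe set read 8.49 in mock, against 8.74 in clone 4 and 8.59 in clone 10 (limma adjusted p = 0.612), and since it is not known here whether it reads the introduced sequence, it does not check the labels.

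The lysosome is the acidic compartment in which proteins, glycans and lipids are broken down. Its hydrolases are made in the endoplasmic reticulum and carried there, many of them through a mannose 6-phosphate tag, and a proton pump keeps the lumen acid. TFEB, TFE3 and MITF bind a short palindromic element, the CLEAR element, near the start of many lysosomal genes and can raise their expression together. MAFK is a small MAF protein that binds DNA with partners at MAF recognition elements and has no activation domain of its own.

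The CLEAR element is shown first because many lysosomal genes, though not each of these 49, are known to be regulated through it. Upstream windows of 250 bases were read from RefSeq promoters (GRCm38.p6) for 41 of the 49 genes, and the other 8 were Ctsb, Ctsh, Asah1, Smpdl3a, Laptm4b, Vamp7, Atp6v0d2 and Atp6v1h. The palindromic core TCACGTGA stood in 5 of the 41 genes (12.2%), and in 0.785% of all 32851 promoter windows (0.907% of their 27025 genes). Each stretch below runs 5′ to 3′ towards the gene start, with the core in capitals. The stretch of Cln3 lies at chr7:126583311-126583398 on the minus strand, that of Ctsa at chr2:164833720-164833772 on the plus strand, that of Ctsd at chr7:142387879-142387966 on the minus strand, that of Gla at chrX:134601153-134601240 on the minus strand and that of Mcoln1 at chr8:3500433-3500518 on the plus strand. Gla held the core a second time, which stands in lower case in its stretch.
Cln3: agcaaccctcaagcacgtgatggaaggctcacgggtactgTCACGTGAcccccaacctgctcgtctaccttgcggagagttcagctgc
Ctsa: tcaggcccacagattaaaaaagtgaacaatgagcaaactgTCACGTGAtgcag
Ctsd: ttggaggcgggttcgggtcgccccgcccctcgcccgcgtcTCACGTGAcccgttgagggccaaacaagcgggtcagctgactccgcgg
Gla: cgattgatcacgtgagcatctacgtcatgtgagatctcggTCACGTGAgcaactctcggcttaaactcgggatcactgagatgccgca
Mcoln1: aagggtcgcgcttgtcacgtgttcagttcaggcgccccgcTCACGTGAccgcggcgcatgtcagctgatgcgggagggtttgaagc

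Of these 5 genes, Cln3 was far below mock in both clones and the other 4 were close to it, as the values below show. Ctsa, Ctsd, Gla and Mcoln1 differed from mock by 0.08, -0.01, 0.07 and 0.17 on the log2 scale (mean of the clones), against -2.39 for Cln3. The same window held the shorter E-box CACGTG, which lies inside the CLEAR core, in 12 of the 41 genes (29.3%) and in 6.02% of all windows (6.86% of genes). TGCTGA, a core of the MAF recognition element, stood, on either strand, in 8 of the 41 (19.5%) and in 16.1% of all windows (18.0% of genes). None of those 8 (Ctsl, Ctss, Ctsz, Lamp2, Mitf, Naglu, Scarb2 and Tpp1) was 2-fold from mock in both clones. The antioxidant response core TGACNNNGC, which can share bases with TGCTGA, was found on either strand in 10 of the 41 (24.4%) and in 10.2% of all windows (11.5% of genes). Those 10 were Cln3, Ctsd, Ctsz, Hexa, Mitf, Naglu, Psap, Scarb2, Tfec and Tpp1. Of them 1, Cln3, was 2-fold lower in both clones and none was 2-fold higher. The windows of Ctsc, Lipa and Smpdl3b held none of these 4 motifs. Ctsh and Vamp7, also far below mock in both clones, had no window and are not covered by these counts. A match is a string of letters and not a measured binding site. In median difference, the 5 genes with the CLEAR core (0.07), the 7 with an E-box alone (-0.02) and the 29 with neither (0.04) lay close together.

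**Figure D1:**
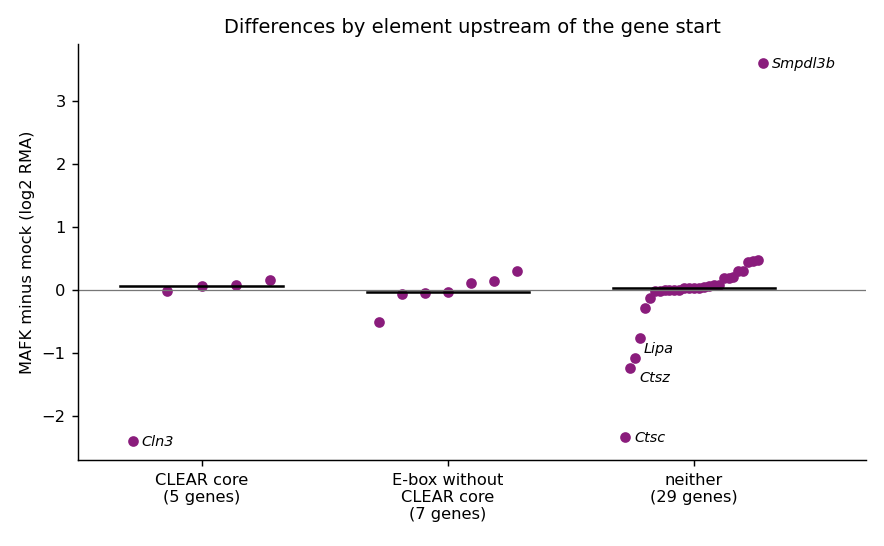
Difference between the mean of the MAFK clones and mock (log2 RMA, vertical axis) for the 41 lysosomal genes with a promoter window, grouped by the element found in it; each point is 1 gene and each bar is the group's median. Cln3 stands at -2.39 below the other 4 genes of its group, and the 3 medians lie between -0.02 and 0.07.

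Most lysosomal genes stayed near their mock level, and a small number were far from it in both clones. Of the 49 genes, 5 were lower than mock by 2-fold or more in both clones (10.2%), against 1.81% of all 19935 genes. They were Ctsh, Vamp7, Cln3, Ctsc and Lipa. Because the 49 were chosen with earlier results known, their shares describe this list only and do not test lysosomal genes as a class. Smpdl3b was at least 2-fold higher in both clones (1 of 49, 2.04%, against 1.19% of all genes). The 49 are unlike all genes in level: 6 of them were under the median of all probe sets on every array, against 8885 of 19935 genes. With such low genes left out, 5 of 43 members were lower and 1 higher. Among all 11050 genes then left, 348 were lower and 236 higher, so the background shares are larger at that level. Of the 49, the other 43 did not meet the 2-fold rule, and neither did 19337 of all 19935 genes. Within 1.2-fold of mock in each clone were 28 of the 49. That share was not counted over all genes, so it does not set these genes apart from the rest. The median difference of the 49 was 0 in clone 4 and 0.01 in clone 10, the median of all genes being 0 in both. In bulk RNA, fewer cells that express a gene and less RNA per cell cannot be told apart.

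A gene is said here to have risen or fallen if it was at least 2-fold from mock in both clones and had an adjusted p under 0.05 in limma's moderated test across all genes. By that rule 2 lysosomal genes fell, Ctsh and Cln3 (4.08%, against 0.762% of all genes), and 1 rose, Smpdl3b (2.04%, against 0.401%). These shares, too, describe a list chosen with earlier results known. Ctsc, Vamp7 and Lipa did not pass. The test has 1 residual degree of freedom and takes the spread between the clones to hold for mock as well.

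**Figure D2:**
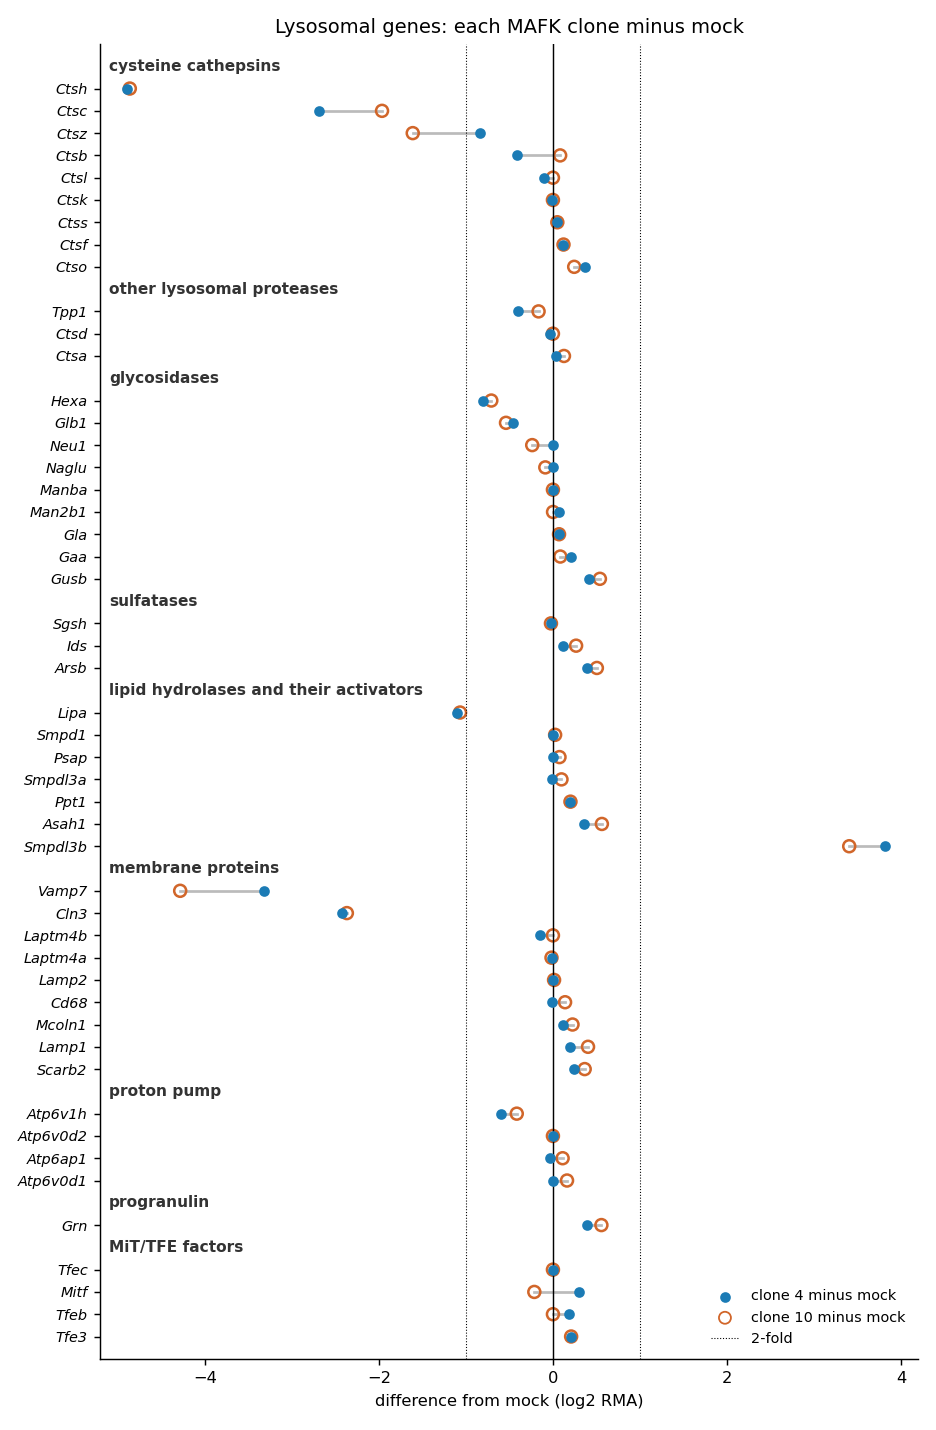
Difference from mock (log2 RMA, horizontal axis) of all 49 lysosomal genes, grouped by role; filled points are clone 4, open circles clone 10, and dotted lines mark 2-fold. Ctsh, Ctsc, Vamp7, Cln3 and Lipa lie beyond the lower line in both clones and Smpdl3b beyond the upper one.

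Among the 9 cysteine cathepsins, papain-like proteases of the lysosome, 2 were lower by 2-fold or more in both clones and none was higher by that much. Ctsh encodes cathepsin H, which acts mainly as an aminopeptidase. It read 10.59 in mock, against 5.70 in clone 4 and 5.73 in clone 10 (log2 RMA). Both clones were thus in the lowest part of the range while mock was well above the median of all probe sets, 6.91. Ctsh fell 29.4-fold, to 5.72 ± 0.02 (SD, n = 2), a log2 difference of -4.88 ± 0.07 (SE) and a limma adjusted p of 0.0256. After a second quantile normalization the difference was -4.87 and the limma adjusted p 0.0488, close to the threshold of 0.05. Whether values under the median of all probe sets are above background is not known here. Folds with such a value on their low side are therefore ratios of RMA values and not measured ratios of RNA amount. Examples are those of Ctsh, Cln3, Vamp7, Smpdl3b, Gpnmb, Rab38, Cdh1 and Ctse.

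Ctsc encodes cathepsin C, a dipeptidyl peptidase that activates granule serine proteases in immune cells. It read 10.04 in mock, against 7.35 in clone 4 and 8.07 in clone 10. Both clones were below mock, clone 4 further than clone 10. At 7.71 ± 0.51 (SD, n = 2) it was 5.01-fold lower, by -2.33 ± 0.37 (SE) on the log2 scale, and did not pass the test (limma adjusted p = 0.141).

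Ctsz, the gene of the carboxypeptidase cathepsin Z, lay just outside the 2-fold rule. Its levels were 11.10 in mock, against 10.26 in clone 4 and 9.49 in clone 10, so that both clones were lower but the difference was -0.84 in clone 4 and -1.61 in clone 10 (limma adjusted p = 0.300). Lipa, described below, lay just inside, at -1.10 and -1.07. Ctsb and Ctsl, the broadly expressed endopeptidases cathepsins B and L, stayed high: Ctsb read 11.39, 10.98 and 11.48 and Ctsl 11.77, 11.67 and 11.77 in mock, clone 4 and clone 10. Ctso was 0.36 and 0.24 above mock in clones 4 and 10. Ctsf (6.50 in mock), Ctsk (6.23, the collagen-degrading cathepsin of osteoclasts) and Ctss (5.89, a cathepsin of antigen-presenting cells) were below the median of all probe sets on all 3 arrays and differed from mock by at most 0.12.

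Of the other proteases, none was 2-fold apart. Ctsd, the aspartic protease cathepsin D, read 11.34 in mock, against 11.31 in clone 4 and 11.34 in clone 10. Ctsa, the serine carboxypeptidase that also protects β-galactosidase and neuraminidase, read 11.70, 11.73 and 11.82. Tpp1, the tripeptidyl peptidase lost in a childhood form of neuronal ceroid lipofuscinosis, was -0.40 in clone 4 and -0.16 in clone 10 (limma adjusted p = 0.494).

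**Figure D3:**
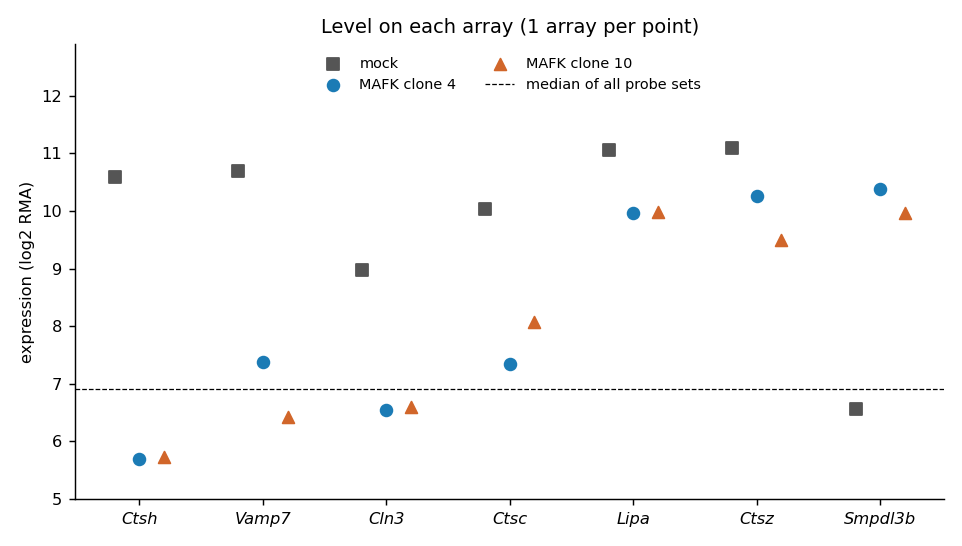
Expression (log2 RMA, vertical axis) on each array of the 6 genes that met the 2-fold rule and of Ctsz; squares are mock, circles clone 4, triangles clone 10, 1 array each, and the dashed line is the median of all probe sets. Both clones of Ctsh and Cln3 lie under the dashed line, as does mock for Smpdl3b.

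None of the 9 glycosidases, which remove sugars from glycoproteins, glycolipids and glycogen, was 2-fold apart from mock. Hexa, the alpha subunit of β-hexosaminidase, came nearest. It read 9.15 in mock, against 8.34 in clone 4 and 8.44 in clone 10, and both clones were lower, by -0.76 ± 0.09 (SE) on the log2 scale or 1.69-fold (limma adjusted p = 0.0968). Glb1, the lysosomal β-galactosidase, was lower by a smaller amount, -0.46 in clone 4 and -0.54 in clone 10. Gusb, β-glucuronidase, was on the other side of mock, at 0.42 and 0.54.

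The remaining 6 glycosidases were within 0.24 of mock in each clone. They were Gaa (acid α-glucosidase), Gla (α-galactosidase A), Man2b1 and Manba (α- and β-mannosidase), Naglu (N-acetylglucosaminidase of heparan sulfate breakdown) and Neu1 (neuraminidase). Manba read 8.47 on all 3 arrays. Among the 3 sulfatases, Arsb, which desulfates dermatan and chondroitin sulfate, was above mock in both clones by 0.39 and 0.50. A second Arsb probe set agreed in side and gave 0.78 and 0.93. Ids, the iduronate sulfatase, was 0.11 and 0.27 above mock, and Sgsh, the heparan sulfamidase, -0.02 in each clone.

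The 7 genes of lipid breakdown held the one increase of over 2-fold. Smpdl3b encodes a phosphodiesterase related to acid sphingomyelinase that is anchored at the outer face of the plasma membrane, so it is a relative of the lysosomal enzymes rather than a typical resident of the lumen. Its levels were 6.56 in mock, against 10.38 in clone 4 and 9.96 in clone 10. Mock was below the median of all probe sets and both clones were well above it. Smpdl3b rose 12.2-fold to 10.17 ± 0.29 (SD, n = 2), by 3.61 ± 0.22 (SE) on the log2 scale. Its limma adjusted p was 0.0499, which lies at the threshold. The adjusted p was 0.0825 after a second quantile normalization, 0.0652 with arrays centred on their medians, 0.0595 with probe sets averaged per gene and 0.0560 with chromosome medians subtracted. Its size hardly moved in these settings, from 3.58 to 3.61.

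Its near relatives did not share that difference. Smpdl3a, the secreted paralogue, read 5.50 in mock, against 5.50 in clone 4 and 5.60 in clone 10, under the median of all probe sets on every array. Smpd1, acid sphingomyelinase itself, was high and flat at 10.75, 10.75 and 10.78. The difference from mock was therefore 3.61 for Smpdl3b, 0.05 for Smpdl3a and 0.01 for Smpd1 on the log2 scale. Differences between the 3 genes were not tested.

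Lipa, the lysosomal acid lipase that frees cholesterol and fatty acids from lipoprotein lipids, was lower in both clones by almost the same amount. It read 11.06 in mock, against 9.96 in clone 4 and 9.99 in clone 10. That is a 2.12-fold lower level, by -1.08 ± 0.07 (SE), larger than the spread between the clones but just short of the threshold (limma adjusted p = 0.0539). With a prior that follows intensity the adjusted p was 0.0437, and with a prior from all genes 0.0254. Asah1, acid ceramidase, was 0.36 and 0.56 above mock in clones 4 and 10 (limma adjusted p = 0.249). Ppt1, the palmitoyl-protein thioesterase, was 0.20 above mock in each clone, and Psap, the precursor of the saposins that present lipids to their hydrolases, was within 0.08 of mock.

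Of the 9 genes of membrane proteins, 2 were lower by 2-fold or more in both clones. Cln3 encodes battenin, a multi-span protein of late endosomes and lysosomes whose loss causes juvenile neuronal ceroid lipofuscinosis. It read 8.97 in mock, against 6.55 in clone 4 and 6.60 in clone 10. Both clones were under the median of all probe sets and mock above it. Cln3 fell 5.25-fold to 6.57 ± 0.04 (SD, n = 2), by -2.39 ± 0.07 (SE), with a limma adjusted p of 0.0293. A second quantile normalization left the size at -2.39 and raised the adjusted p to 0.0520.

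Vamp7 encodes a SNARE protein of late endosomes that takes part in their fusion with lysosomes and in lysosome exocytosis. Its levels were 10.70 in mock, against 7.37 in clone 4 and 6.41 in clone 10. Both clones were far below mock, by 10.0-fold in clone 4 and 19.5-fold in clone 10, and differed from each other by 0.96 on the log2 scale. At 6.89 ± 0.68 (SD, n = 2) the gene was 13.97-fold lower, by -3.80 ± 0.49 (SE), and with that spread it did not pass (limma adjusted p = 0.111).

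The general lysosomal membrane proteins did not follow Cln3 and Vamp7. Lamp1 and Lamp2, the abundant glycoproteins that line the membrane, read 11.87, 12.07 and 12.27 and 11.63, 11.63 and 11.65 in mock, clone 4 and clone 10. Scarb2, also called LIMP-2, the receptor that brings glucocerebrosidase to lysosomes, was 0.25 and 0.36 above mock. Mcoln1, the calcium channel TRPML1, was 0.11 and 0.22 above it. Laptm4a was -0.02 in each clone, Laptm4b -0.15 and 0, and Cd68, a glycoprotein best known from macrophages, -0.01 and 0.14.

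None of the 4 proton pump genes was 2-fold apart. Atp6v1h, a regulatory subunit of the cytosolic sector, was lower in both clones, at 9.54 in mock, against 8.95 in clone 4 and 9.13 in clone 10 (limma adjusted p = 0.203). Atp6v0d1, the broadly expressed d subunit of the membrane sector, read 10.20, 10.20 and 10.36, and the accessory subunit gene Atp6ap1 11.97, 11.94 and 12.08. Atp6v0d2, the d subunit of osteoclasts and some macrophages, gave 4.997 on all 3 arrays, near the bottom of the range. Grn, which encodes progranulin, a secreted and lysosomal glycoprotein, was above mock in both clones, at 11.01 against 11.40 in clone 4 and 11.57 in clone 10 (limma adjusted p = 0.209).

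The MiT/TFE factors themselves were not apart from mock. Tfeb read 8.73 in mock, against 8.92 in clone 4 and 8.73 in clone 10. Tfe3 read 9.43, 9.64 and 9.64, which was 0.21 above mock in each clone (limma adjusted p = 0.311). Mitf moved to opposite sides, with 7.91 in mock, against 8.22 in clone 4 and 7.70 in clone 10, and a second Mitf probe set gave 4.52 on all 3 arrays. Tfec, a member with a narrow expression in myeloid cells, read 5.58 on all 3 arrays. The arrays measure RNA, whereas these factors are largely controlled by their location in the cell, which was not measured.

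Gpnmb, a transmembrane glycoprotein and known target of MITF, was 6.82 in mock, against 12.31 in clone 4 and 12.46 in clone 10, so its RNA rose 47.5-fold (limma adjusted p = 0.0256) beside MiT/TFE levels that were not 2-fold apart. It is the 1 gene to rise among 12 pigment-cell targets of MITF, where 0.401% of all genes rose. That list was drawn up with earlier results of these data known, so the count is a description only. The part of MITF in the level of Gpnmb was not tested. The other 11 of that list, Pmel, Tyr and Trpm1 among them, were below the median of all probe sets on all 3 arrays and within 0.09 of mock.

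The clones were also set against each other, with no test since each was measured once. None of the 49 was 2-fold apart between clone 10 and clone 4, a count near the background of 0.441% of all genes. The median gap between the clones was 0.11 over the 49 and 0 over all genes. The largest gaps were those of Vamp7 (clone 10 lower by 0.96), Ctsz (clone 10 lower by 0.77) and Ctsc (clone 10 higher by 0.72). Of the 49 genes, 18 (36.7%) were above mock in both clones, against 33.7% of all genes, and 12 (24.5%) were below, against 17.9%. With arrays centred on their medians these counts were 17 and 23 (28.3% and 62.3% of all genes), and after a second quantile normalization 25 and 15 (44.3% and 44.6% of all genes), so the side of the small differences depends on the scaling. Equal values on all 3 arrays were found in 3 of the 49 (6.12%) and in 34.3% of all genes, and equal values in both clones in 10 (20.4%) and 55.5%.

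**Figure D4:**
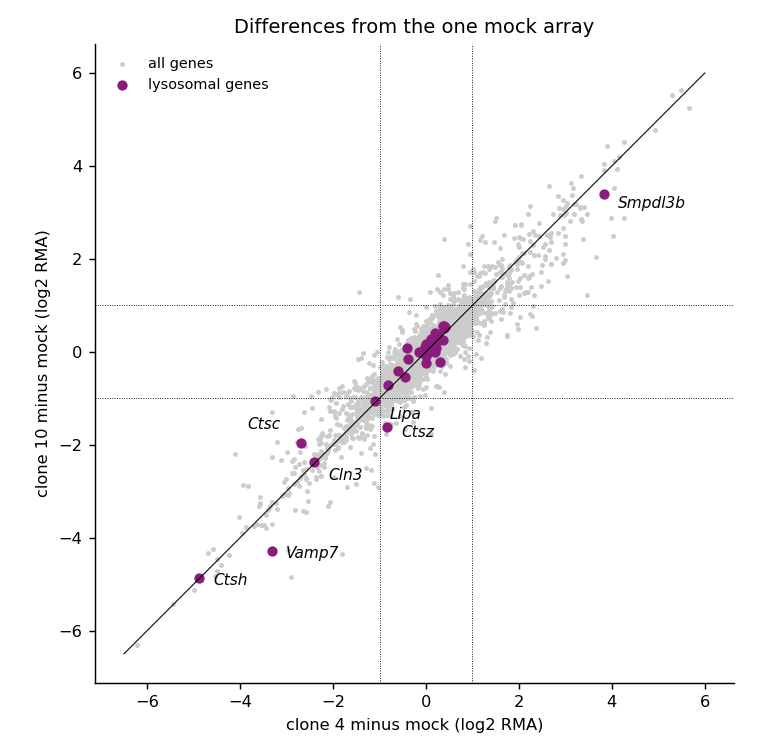
Difference from mock in clone 4 (horizontal) and clone 10 (vertical), in log2 RMA, of all 19935 genes (grey) and the 49 lysosomal genes (purple); the line marks equal differences and dotted lines 2-fold. Because both axes share 1 mock array, closeness to the line is partly built in, and Vamp7, Ctsz and Ctsc stand farthest from it among the lysosomal genes.

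Further lists covered other genes of the organelle, autophagy, cathepsin inhibitors and the pigment-cell targets of MITF. Across these 8 lists 189 of 206 genes were measured, of which 1, Gpnmb of the pigment-cell list, was higher and 3 were lower by 2-fold or more in both clones. Over all genes the shares were 1.19% and 1.81%, so both counts are near the background. Among 32 further hydrolases and their modifying enzymes 1 was lower, Ggh, the γ-glutamyl hydrolase that trims folates, at 8.88 in mock, against 7.68 in clone 4 and 7.88 in clone 10 (limma adjusted p = 0.0923). None of 45 further membrane and transport proteins, 20 further proton pump subunits, 36 autophagy genes or 9 cystatins, the inhibitors of cysteine cathepsins, was 2-fold apart. Among 25 genes of nutrient sensing at the lysosome, Sesn3, a sestrin that restrains mTORC1, was lower, at 10.13, 8.07 and 8.85 (limma adjusted p = 0.216).

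Cathepsins outside the 49 were mostly at low values, 9 of 10 staying under the median of all probe sets on every array. The exception, Ctse, the aspartic protease cathepsin E of endosomes, fell 2.26-fold from 7.57 in mock to 6.41 in clone 4 and 6.38 in clone 10, with a limma adjusted p of 0.0476. Both clones were under that median, and the adjusted p lies close to the threshold. The median difference was 0 in both clones for 5 of the 8 lists. For the hydrolases it was 0 in clone 4 and 0.08 in clone 10, for the proton pump subunits 0.04 and 0, and for the pigment-cell targets 0.02 in each.

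Measured genes beside the 6 members that met the 2-fold rule were read in the same way. The nearest 3 on each side were taken by start position within each chromosome of the RefSeq gene table. Vamp7 had the lowest start among measured genes assigned to X, so genes on 1 side only were taken. It was not checked that its start and theirs lie on the same assembled sequence. The genes listed for Vamp7 are therefore not shown to lie beside it. In all, 33 genes were read. Of these 33, 2 met the 2-fold rule, both lower, against 1.81% of all genes that were lower by that much. Rab38, the next measured gene to Ctsc on chromosome 7 and a small GTPase of lysosome-related organelles, read 9.47 in mock and 6.36 in each clone and fell 8.60-fold (limma adjusted p = 0.0256). On the other side of Ctsc, Grm5 and Tyr, both under the median of all probe sets on every array, were at most 0.10 from mock, and Nox4 was 0.39 and 0.58 above it.

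The second neighbour was Ifit3, an interferon-stimulated gene beside Lipa on chromosome 19, which fell by 1.85 (limma adjusted p = 0.0344), while Ifit2, between them, was 0.76 and 0.99 above mock. No neighbour of Ctsh, Cln3 or Smpdl3b was 2-fold apart, and no gene listed for Vamp7 was. Of the 6 X-linked members, Vamp7 was lower and Tfe3, Gla, Lamp2, Atp6ap1 and Ids were between -0.03 and 0.27 of mock. Xist, the RNA that coats the silenced X chromosome, read 11.74 in mock, against 5.52 in clone 4 and 5.44 in clone 10, and its part in the level of Vamp7 was not tested. The 5 members on chromosome 8, Lamp1, Mcoln1, Man2b1, Asah1 and Atp6v0d1, were at or above mock by 0 to 0.56, while the median over all 955 genes of that chromosome was 0.06 in clone 4 and 0.05 in clone 10.

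**Figure D5:**
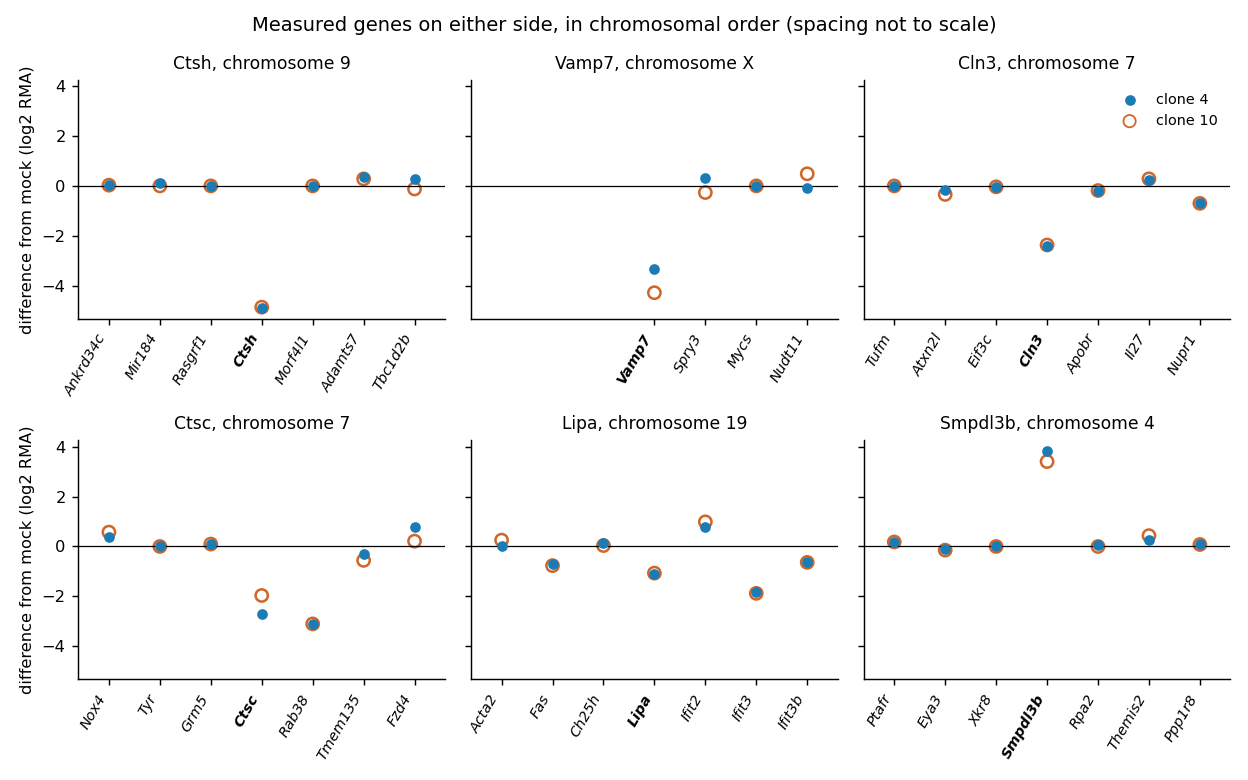
Difference from mock (log2 RMA, vertical axis) of the 6 genes that met the 2-fold rule (bold) and of the measured genes on either side in chromosomal order (horizontal axis, spacing not to scale); filled points are clone 4 and open circles clone 10. Rab38 beside Ctsc and Ifit3 near Lipa lie below -1 in each clone, and the genes plotted with Ctsh, Cln3, Vamp7 and Smpdl3b do not. The genes plotted with Vamp7 were ordered by start position alone and are not shown to lie beside it.

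Marker genes were read on the same arrays to check the labelled cell type. Krt8, Krt18 and Krt19, keratins of simple epithelia, read 13.67, 11.95 and 11.99 in mock, 13.18, 10.92 and 12.25 in clone 4 and 13.31, 11.08 and 12.08 in clone 10, whereas Epcam read 5.58 on all 3 arrays, and 7 of 12 epithelial markers were at or above the median of all probe sets in mock. Of the 12, 2 fell and the other 10 did not meet the 2-fold rule, 4 of them (Krt7, Krt19, Cldn3 and Cldn4) being above mock in both clones. Cdh1, the gene of E-cadherin, fell from 11.35 to 6.85 and 6.64 in clones 4 and 10 (limma adjusted p = 0.0282), and Tjp1, a tight junction gene, from 11.01 to 9.55 and 9.51 (limma adjusted p = 0.0394). Of 15 macrophage markers, 14 were below that median on every array, Ptprc, Adgre1 and Aif1 among them, with mean levels of 6.16 in mock, against 6.04 in clone 4 and 6.10 in clone 10. Cd14, the exception, was lower in both clones (9.69, 7.42 and 7.83) without passing (limma adjusted p = 0.0907). All 7 melanocyte markers and 5 of 8 osteoclast markers were below it on every array. In 10 fibroblast markers the mean level was 7.31, 7.52 and 7.60 in the order mock, clone 4, clone 10, and 4, 5 and 5 of them were at or above that median. Vim, also high in mock, read 13.39, 13.01 and 13.26 in the same order. Pdgfrb rose (limma adjusted p = 0.0461) and Dcn was lower without passing (limma adjusted p = 0.0711). The part of any change of cell state in the lysosomal genes was not tested.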

How the data were processed

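Gene expression was measured on 3 Affymetrix arrays (1 mock, 2 MAFK clones). Per the submitters' processing notes, the authors ran RMA, so the deposited numbers are log2 signals for each probe set; the RMA version is not given in the sources used here. Medians over 28815 probe sets were 6.89, 6.92 and 6.93, and with 3 arrays the precision is limited by their number. The platform annotation gave 1 symbol for 21780 probe sets, several for 1605 and none for 5430; 21689 were updated by Entrez identifier through RefSeq (GRCm38.p6).

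limma 3.58.1 in R 4.3.3 was fitted to all 3 arrays (two-sided, Benjamini-Hochberg over 19935 genes). RMA gave 55.5% of genes equal values in both clones, so the prior variance (1.93 degrees of freedom, SD 0.0694) came from the 8873 genes whose clones differed. Genes equal in the clones have the smallest standard error, 0.07. No label tells if the clones were grown apart, and p-values then cover the spread between these arrays only. Fold values are 2 to the power of log2 differences.

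The 49 genes, the lists, the tests and their alternatives were chosen with earlier results of these data known. All 49 are named by role, and list genes by counts and at most 4 examples past 2-fold in both clones. Neighbours, marker examples and motifs were chosen after values were seen. Alternatives changed the normalization, scaling, probe set, filter, chromosome shift, prior, fold threshold and clones used.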

Additional observations from a re-analysis of the deposited data

How the results depend on the processing

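The counts of lysosomal genes at least 2-fold higher (1) and lower (5) in both clones stayed within 1.5 times under a second quantile normalization, median centring, averaged probe sets, a filter on low genes, subtraction of chromosome medians, a 1.5-fold or 3-fold threshold and the loss of either clone. No direction reversed among the 6 genes in these alternatives or under either other prior. The test was less stable than the sizes. The number of lysosomal genes that rose went from 1 to 0 with a second quantile normalization, with arrays centred on their medians, with averaged probe sets and with chromosome medians subtracted, because Smpdl3b no longer passed. The number that fell went from 2 to 1 with a second quantile normalization, because Cln3 no longer passed. Over all genes, the 80 that rose and 152 that fell became 9 and 25 after a second quantile normalization, 48 and 99 after centring and 128 and 232 with a prior from all genes. The cause was not tested. Of the further lysosomal and related genes, 1 was 2-fold higher in both clones, against 2 to 3 when either clone was left out. With 1 clone left out no residual degree of freedom is left, so those values have no test. No paired analysis was possible because the mock group has a single array and shares no replicate number with the clones.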

Other observations

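Further lysosomal genes that did not meet the 2-fold rule were singled out after their values were seen. Gnptab, the enzyme that adds the mannose 6-phosphate tag to lysosomal hydrolases, read 10.12 in mock, against 9.23 in clone 4 and 9.23 in clone 10 (limma adjusted p = 0.0654). Slc38a9, an arginine sensor of the lysosomal membrane, was -0.75 in clone 4 and -0.71 in clone 10 (limma adjusted p = 0.0825). On the other side of mock, the transporter gene Abca2 read 9.26, 10.31 and 10.19 (limma adjusted p = 0.0757), Arsa, the arylsulfatase of sulfatide breakdown, 8.82, 9.65 and 9.94 (limma adjusted p = 0.146), and Ifi30, a lysosomal thiol reductase, 10.64, 11.37 and 11.39 (limma adjusted p = 0.0767). None of these 5 passed the test.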
